A study of Mus musculus with 8 samples.

Results

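The tripartite motif (TRIM) family was followed in the ageing Marfan mouse aorta. Its members were taken as every symbol in the deposited count tables that begins with Trim and a number, which gave 68 of 25526 listed genes. The libraries were made from aortas of male Marfan model mice, heterozygous for the fibrillin-1 allele Fbn1 C1041G, with 4 libraries at 2 years and 4 at 12 weeks of age. The labels do not say whether a library is 1 animal or a pool. Series labels place the younger age in the phase of aneurysm growth and the older age after growth has stopped. Both groups carry the Fbn1 allele and no wild-type mice were analysed here, so ageing as such and the course of the disease cannot be told apart. The aorta was sampled as bulk tissue, in which fewer cells of a type and less RNA per cell cannot be told apart either.

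TRIM proteins are mostly E3 ubiquitin ligases built from a RING finger, B-boxes and a coiled coil, followed by a C-terminal domain that selects the substrate. Many members with a C-terminal SPRY domain are induced by interferon and act on virus components or on the sensing pathways upstream of interferon. Others repress chromatin, bind microtubules, or turn over proteins of the muscle sarcomere.

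Library totals were 16251986 to 33880690 counts at 2 years and 23622803 to 27417541 counts at 12 weeks. TRIM genes took 0.102 to 0.131% of counts at 2 years and 0.127 to 0.133% at 12 weeks. Smooth muscle markers were abundant in every library, with a summed level of 16472 to 24957 CPM at 2 years and 28193 to 33812 CPM at 12 weeks, where CPM is counts scaled to a library of 1e+06. The 12 weeks replicate 3 library stood apart in heart muscle markers and the 2 years replicate 3 library was the shallowest. In 12 weeks replicate 1 the summed endothelial markers were at 345 CPM, against 703 to 776 CPM in the other 12-week libraries. In 2 years replicate 3 the summed fibroblast markers were at 7462 CPM, against 3037 to 3893 CPM in the other 2-year libraries.

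Of the 68 members, 9 had no count in any library, 14 had too few counts to test and 45 passed edgeR's filter on low counts. At an adjusted p below 0.05 (edgeR's quasi-likelihood test, Benjamini-Hochberg adjustment over 13978 genes), 10 of the 45 were higher and 16 were lower at 2 years. In either direction 57.8% of the tested members were called, beside 52.0% of all genes tested. By direction the shares were 22.2% and 35.6% of the tested members, beside 25.8% and 26.2% of all genes. The share that rose was thus near the background. The CPM of the groups did not overlap for 10 members that were higher and 17 that were lower, beside 24.3% and 25.3% of all genes. With a change of at least 2-fold, 6 members rose and 9 fell, or 13.3% and 20%, beside 11.7% and 10.6% of all genes. The median log2 fold change, 2 years over 12 weeks, was -0.24 for the tested members and -0.01 for all genes. Of the tested members, Trim6, Trim63 and Trim67 passed the filter through their 12-week libraries, and Trim30b and Trim30c through their 2-year libraries. Passing only through the group where a member is high favours a call in that direction in advance. Without 12 weeks replicate 3 and 2 years replicate 3, 11 members were higher and 15 lower. Without 12 weeks replicate 1, 8 were higher and 16 lower.

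**Figure D1:**
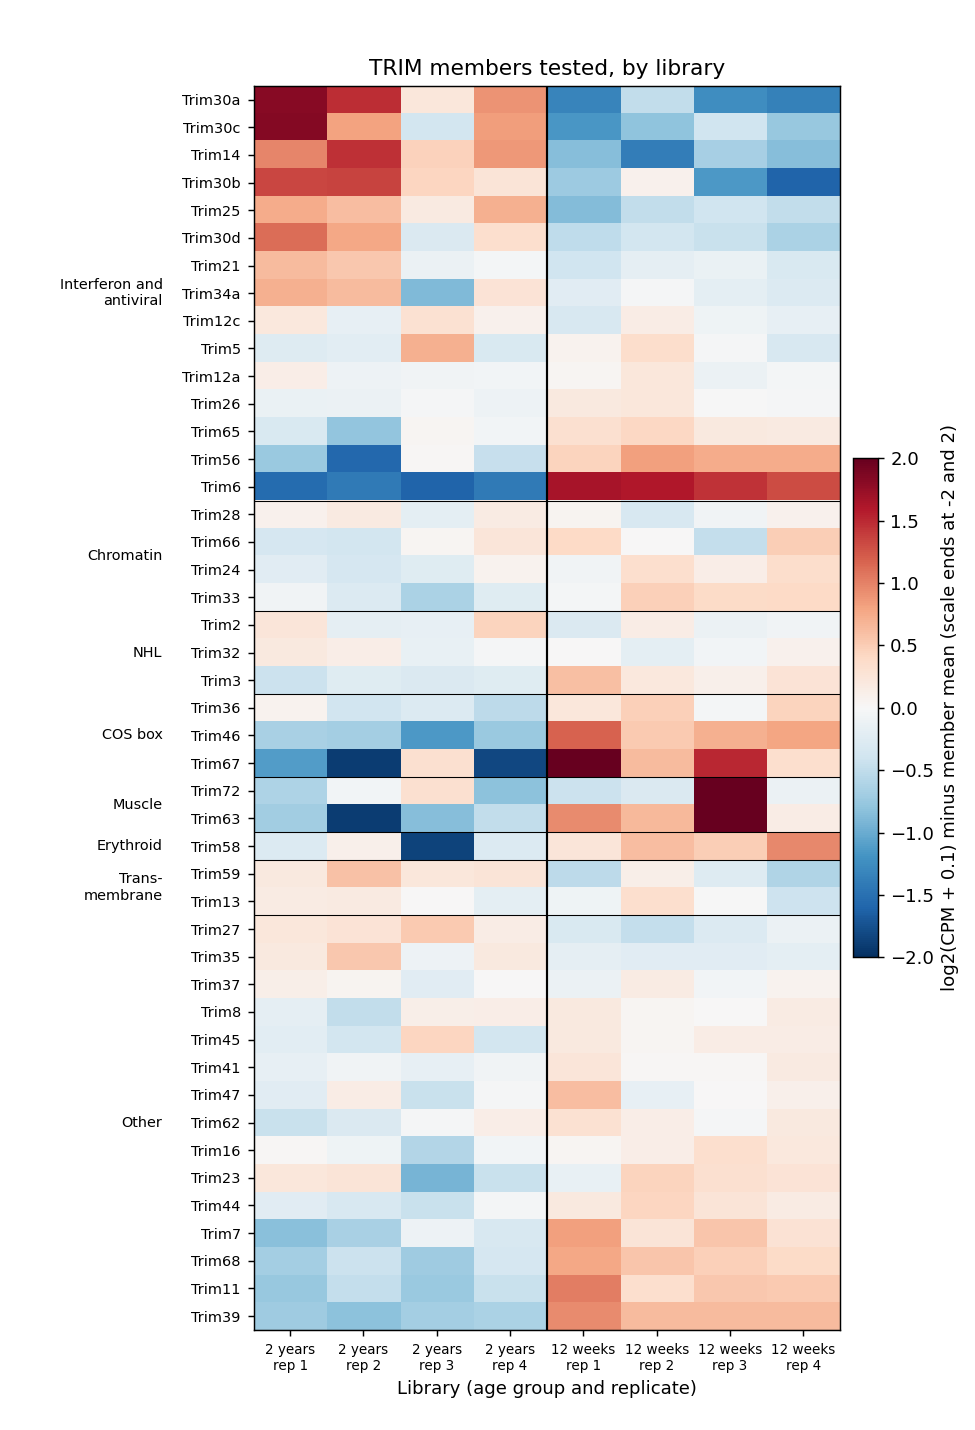
Level of the 45 tested members in each library, as log2(CPM + 0.1) minus the member's mean over all 8 libraries (red higher, blue lower, colour scale ending at -2 and 2), with 2-year libraries on the left, 12-week libraries on the right and members grouped by role. Trim30a, Trim30c, Trim14, Trim30b and Trim25 are red in the 2-year libraries with the exception of Trim30c in replicate 3, and Trim6, Trim39, Trim11 and Trim46 are blue in all of them.

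Fold changes in these libraries depended on transcript length. Each library's log2 CPM, taken as a deviation from the gene's average, had a slope on log2 transcript length of -0.315 to -0.108 at 2 years and 0.127 to 0.262 at 12 weeks. An offset that removes each library's trend on length and GC content was therefore run beside the main fit. The slopes of the ages did not overlap, and a technical difference between the groups cannot be told apart from age, with or without the offset. With the offset 12 members rose and 13 fell, beside 24.9% and 25.7% of all genes, and the members' median was -0.03. Of the calls made without it, 9 of the 10 higher and 11 of the 16 lower were kept. Its values are given where it ends or makes a call of a named gene. Where it moves a value without changing the call, they are given for some genes only.

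**Figure D2:**
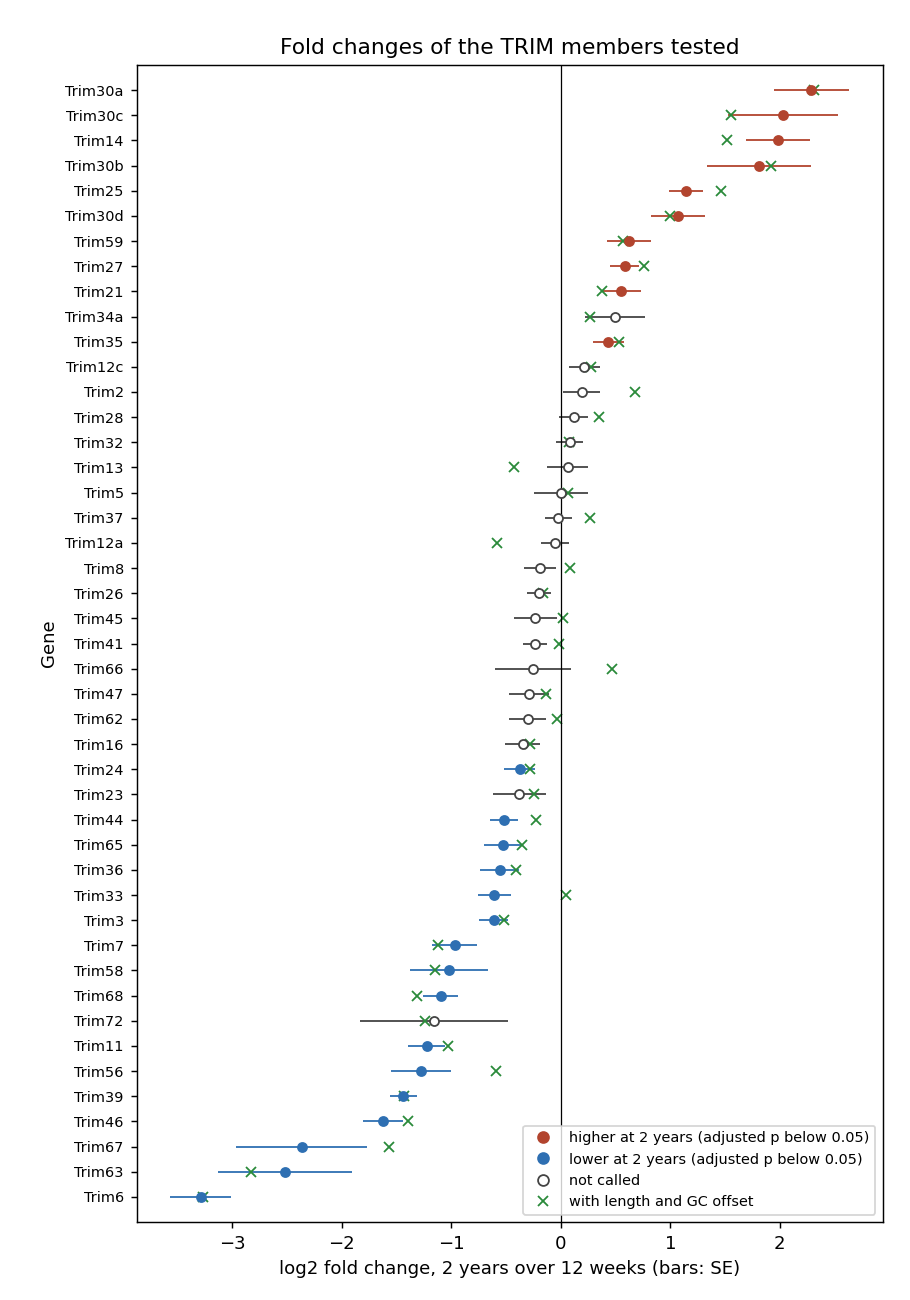
Log2 fold change, 2 years over 12 weeks, of each tested member with its standard error (circles, filled where called, red higher and blue lower) and the value with the length and GC offset (green crosses). The values run from -3.29 for Trim6 to 2.29 for Trim30a, and the crosses of Trim33, Trim2, Trim56 and Trim67 lie well to the right of their circles.

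The members linked to interferon and antiviral defence split in both directions. Of 17 such members 15 were tested, of which 7 rose, 3 fell and 5 were not called. That is 46.7% higher and 20% lower, beside 25.8% and 26.2% of all genes. These shares are descriptive and no test of the group, since its list was chosen with earlier results of these data known. Trim30b and Trim30c also passed the filter through their 2-year libraries, and Trim6 through its 12-week libraries. The 4 Trim30 genes are paralogs. Those that rose were the mouse Trim30 group, Trim25, Trim14 and Trim21. Those that fell were Trim6, Trim56 and Trim65. Many of these genes lie in 1 stretch of chromosome 7, with a few other annotated genes between them, in the order Trim6, Trim34a, Trim5, Trim12a, Trim34b, Trim12c, Trim30b, Trim30c, Trim30a and Trim30d in the RefSeq annotation of GRCm38.p6. Of these 10 members 9 were tested. The 4 Trim30 genes at one end rose, Trim6 at the other end fell, and the 4 between them were not called.

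Sequences upstream of these genes are shown because interferon-induced genes commonly carry an interferon-stimulated response element near their start. The window searched ran from 250 bases before to 50 after each start site in RefSeq (GRCm38.p6), on both strands, for the element's core, which is GAAA, any 2 bases and GAAA again. The windows carry GRCm38.p6 coordinates, and the counts were made on another build, GRCm39. Of the 68 members 53 had such a window. The core was present in 10 of 67 TRIM windows (14.9%), beside 3.44% of all 32851 windows. In the lines that follow, capitals mark the core or its reverse complement, each line runs 5′ to 3′ on the gene's own strand, and each is 30 bases long.
Trim30a (chr7:104465210-104465239, minus strand): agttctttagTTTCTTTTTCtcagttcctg
Trim30d (chr7:104507871-104507900, minus strand): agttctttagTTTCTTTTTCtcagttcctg
Trim21 (chr7:102565450-102565479, minus strand): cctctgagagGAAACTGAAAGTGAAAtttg
Trim34a (chr7:104244457-104244486, plus strand): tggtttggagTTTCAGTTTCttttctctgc
Trim5 (chr7:104288136-104288165, minus strand): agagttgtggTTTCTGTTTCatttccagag
Trim12a (chr7:104315466-104315495, minus strand): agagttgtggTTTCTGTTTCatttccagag
Trim12c (chr7:104353359-104353388, minus strand): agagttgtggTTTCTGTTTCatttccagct
The Trim30a and Trim30d lines are the same, as are those of Trim5 and Trim12a, so these windows are not independent of one another. In Trim21 the capitals cover 2 overlapping copies of the core. The core begins 36 bases before the start site of Trim30a and 41 before that of Trim30d, and 13 bases after that of Trim21.

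Among the tested members with a window, the core was found in 3 of 8 that rose (Trim21, Trim30a and Trim30d), in 0 of 11 that fell and in 6 of 17 not called (Trim2, Trim26, Trim34a, Trim5, Trim12a and Trim12c). Over all tested genes with a window it was found in 6.74% of those that rose, 2.87% of those that fell and 3.02% of those not called. The core was thus present in Trim5, Trim12a and Trim12c, whose levels did not pass the test, and its letters were not in the windows of Trim25, Trim30b and Trim30c, which rose. The 250 bases before the start sites of Trim30a and Trim6, the called cluster members with the most positive and the most negative fold change, are set side by side.
Trim30a (chr7:104465194-104465443, minus strand): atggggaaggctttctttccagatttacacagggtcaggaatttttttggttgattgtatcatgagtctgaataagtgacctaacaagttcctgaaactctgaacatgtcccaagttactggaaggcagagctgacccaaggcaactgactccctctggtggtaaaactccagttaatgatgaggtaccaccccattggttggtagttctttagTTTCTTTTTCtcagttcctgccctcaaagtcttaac
Trim6 (chr7:104218545-104218794, plus strand): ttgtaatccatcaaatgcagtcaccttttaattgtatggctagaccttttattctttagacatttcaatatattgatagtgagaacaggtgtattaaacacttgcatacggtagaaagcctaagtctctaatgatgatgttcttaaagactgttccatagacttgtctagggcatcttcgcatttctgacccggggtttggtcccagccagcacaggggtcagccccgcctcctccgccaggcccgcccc
The Trim6 line holds no core.

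Trim30a, a mouse SPRY member that restrains NF-kappaB signalling downstream of Toll-like receptors, had 105, 83.2, 34.9 and 55.5 CPM in 2 years replicates 1 to 4, against 11.9, 21.2, 12.5 and 11.6 CPM in 12 weeks replicates 1 to 4. Every 2-year value lay above every 12-week value, and 2 years replicate 3 was the lowest of its group. The means were 69.7 ± 30.8 and 14.3 ± 4.62 CPM (SD, n = 4), and the fitted log2 ratio of 2 years over 12 weeks was 2.29 (SE 0.34, edgeR adjusted p = 0.000435). Per kilobase of transcript, Trim30a stood at 18.5 CPM at 2 years and 3.79 CPM at 12 weeks, rank 5 and rank 29 among the 68 members.

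Its neighbours in the Trim30 group moved the same way. Trim30d had 35.5, 27.98, 13.3 and 20.4 CPM at 2 years, against 11.4, 12.6, 11.9 and 10.5 CPM at 12 weeks. The groups did not overlap, and the log2 fold change was 1.07 (SE 0.25, edgeR adjusted p = 0.00424). Trim30b (1.88 ± 0.760 against 0.535 ± 0.332 CPM, SD, n = 4) and Trim30c (1.31 ± 0.833 against 0.324 ± 0.0927 CPM) were scarce, with log2 fold changes of 1.81 and 2.03. Trim30c held only 7 counts in 2 years replicate 3. Paralogs share sequence here: 6.53% of the 50-base words in the Trim30a transcript also occur in another gene on the same strand, and 8.29% in Trim30d, so a part of their reads may be split between them.

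Trim25, which ubiquitinates the RNA sensor RIG-I and is itself induced by interferon, had 60.7, 55.7, 41.0 and 59.2 CPM at 2 years, against 19.7, 25.7, 27.2 and 25.6 CPM at 12 weeks. The groups were far apart relative to their spread, and the log2 ratio was 1.14 (SE 0.16, edgeR adjusted p = 0.000145). Trim14, a member without a RING finger that acts as an adaptor for the mitochondrial antiviral protein MAVS, had 4.56, 6.44, 3.19 and 4.24 CPM at 2 years, against 1.22, 0.809, 1.41 and 1.22 CPM at 12 weeks. Its log2 fold change was 1.98 (SE 0.29, edgeR adjusted p = 0.000239). Of the 50-base words of Trim14, 7.63% lie opposite another annotated transcript, and the strand of the counts is not given in the sources used here.

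Trim21, a cytosolic receptor for antibody constant regions, rose by less. It had 25.6, 23.9, 15.2 and 16.04 CPM at 2 years, against 12.4, 14.5, 15.02 and 13.3 CPM at 12 weeks, so that the lowest 2-year library and the highest 12-week library nearly met. The log2 fold change was 0.55 (SE 0.18, edgeR adjusted p = 0.0261, and 0.00858 to 0.109 over all alternatives). It was not called without 12 weeks replicate 1 (0.50), 12 weeks replicate 4 (0.53), 2 years replicate 1 (0.41) or 2 years replicate 2 (0.44), nor with the length and GC offset (0.38).

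Trim6, at the far end of the cluster from the Trim30 genes, fell. In human cells TRIM6 makes ubiquitin chains that activate the kinase IKK-epsilon in interferon signalling. Trim6 had 0.342, 0.384, 0.325 and 0.382 CPM at 2 years, against 3.93, 3.81, 3.40 and 3.08 CPM at 12 weeks. Both groups were tight and did not overlap. The fitted level was 9.77-fold lower at 2 years, a log2 value of -3.29 (SE 0.28, edgeR adjusted p = 5.46e-06). The 2-year values rest on 12, 9, 5 and 11 counts. Ikbke, which encodes IKK-epsilon, also fell, to 4.49 ± 0.929 CPM at 2 years, against 17.2 ± 2.77 CPM at 12 weeks (SD, n = 4; log2 fold change -1.92, edgeR adjusted p = 1.52e-05).

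Trim56, an antiviral ligase, was among the 6 members with the highest mean CPM. It had 52.2, 29.2, 88.5 and 63.5 CPM at 2 years, against 119, 154, 146 and 146 CPM at 12 weeks. All 2-year values were lower, with a wide spread among them, and the log2 ratio was -1.28 (SE 0.27, edgeR adjusted p = 0.00277). Its transcript is long (9279 nt) and the value was -0.59 with the length and GC offset, still called. Trim65, which ubiquitinates the RNA sensor MDA5, was at 14.9 ± 3.55 CPM at 2 years and 21.4 ± 1.67 CPM at 12 weeks (SD, n = 4; log2 fold change -0.53, edgeR adjusted p = 0.0257). Trim65 was not called without 12 weeks replicate 2 (-0.48), without 2 years replicate 1 (-0.51) or with the offset (-0.35).

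The remaining cluster members did not pass the test. Trim5 had 7.65, 7.89, 15.1 and 7.43 CPM at 2 years, against 9.61, 11.8, 9.03 and 7.30 CPM at 12 weeks, a log2 fold change of 0.0036 (SE 0.25). Trim12c was at 31.9 ± 4.32 and 27.5 ± 3.72 CPM and Trim12a at 19.8 ± 1.48 and 20.5 ± 2.15 CPM (2 years and 12 weeks, SD, n = 4). With the offset Trim12a was at -0.58 and called lower. Trim34a had 26.5, 24.9, 8.71 and 19.6 CPM at 2 years, against 13.7, 15.8, 14.02 and 13.3 CPM at 12 weeks. The 2 years replicate 3 library was below all others and the other 3 were above every 12-week value. Without that library the log2 fold change of Trim34a was 0.74 and called, against 0.50 and not called with it. With the length and GC offset Trim34a was at 0.27 and not called. These genes are close copies, since 38.1% of the 50-base words of Trim5, 41.3% of Trim34a, 32.7% of Trim12c and 23.5% of Trim12a occur in another gene on the same strand, and their counts are uncertain. Trim26, on chromosome 17, was at 37.1 ± 1.28 CPM at 2 years and 42.5 ± 3.73 CPM at 12 weeks and was not called.

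**Figure D3:**
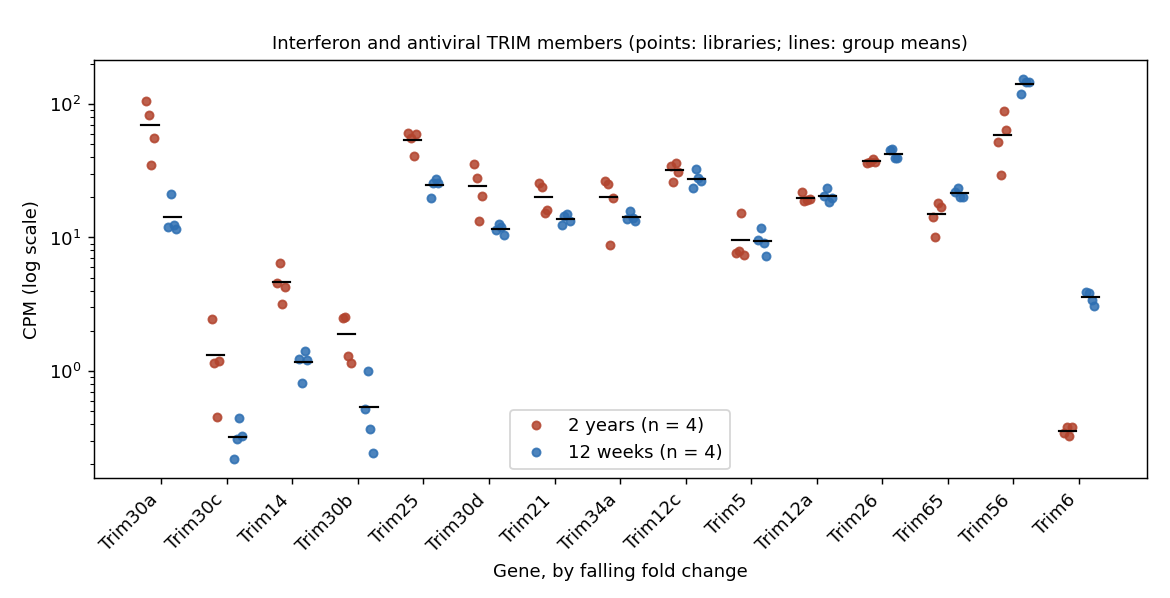
CPM (log scale) of the 15 tested interferon and antiviral members in each library (points, 2 years in red left of 12 weeks in blue, n = 4 each; black lines are group means), by falling fold change. The groups of Trim30a, Trim25, Trim14 and Trim6 do not overlap, while those of Trim5 and Trim12a overlap.

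Immune cell markers moved with the members that rose. All 10 macrophage markers rose, with a summed level of 2673 to 3904 CPM at 2 years and 672.6 to 944.1 CPM at 12 weeks. All 9 tested T and NK cell markers rose (53.6 to 90.3 CPM at 2 years and 6.98 to 17.7 CPM at 12 weeks), as did all 8 B and plasma cell markers (240.8 to 1235 CPM and 2.27 to 3.66 CPM), of which Mzb1 was at 0 counts in every 12-week library. Of all genes tested 25.8% rose. Some of these markers, among them Mzb1, Jchain, Nkg7 and Klrb1c, were below the filter's level of 0.394 CPM in every 12-week library. They were thus tested through their 2-year libraries, which favours a higher call in advance. Among the 2-year libraries the macrophage sum was highest in replicate 3, at 3904 CPM. Trim30a, Trim30d, Trim30c, Trim14, Trim25 and Trim21 were lowest in that library. Most macrophage markers were highest there too, but not all, so the sum alone does not rank the libraries by macrophage content. Lyz2, the most abundant, was highest in it (1306 CPM, against 643 to 935 CPM in the other 2-year libraries). C1qa, C1qb, C1qc, Itgam and Csf1r were also highest in it, as was Cd68 by a small margin. Mrc1 and Fcgr1 were neither highest nor lowest in it. Adgre1 was lowest in it (152 CPM, against 173 to 264 CPM). The summed interferon signalling list was lowest in that same library, at 984.2 CPM, against 1161 to 1309 CPM in the other 2-year libraries. The part of these cells in the results was not tested.

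Genes of the pathways around these members also moved. Of 15 interferon signalling genes 8 rose and 1 fell, beside 25.8% and 26.2% of all genes. The median of the 15 log2 fold changes was 0.58. They included the transcription factors Irf7 (log2 fold change 4.07), Irf9 (1.23) and Irf8 (2.38) and the ISG15 protease Usp18 (3.53), all with an edgeR adjusted p of at most 0.000103. Of 13 nucleic acid sensing genes 6 rose and 3 fell (median 0.40). The adaptor Sting1 was at 48.3 ± 3.19 CPM at 2 years and 9.82 ± 1.72 CPM at 12 weeks (SD, n = 4; log2 fold change 2.30, edgeR adjusted p = 1.26e-06). The sensor Zbp1 (3.82) and the RIG-I-like receptor Dhx58 (2.53) rose as well, and besides Ikbke the genes Irf3 and Traf3, named here after their values were seen, fell (-0.67 and -0.59). With the offset Traf3 was at -0.061 and not called. Of 18 ubiquitin-activating and ubiquitin-conjugating enzymes, the partners of E3 ligases, 7 rose and 0 fell (median 0.34). Ube2l6, the conjugating enzyme for ISG15, was at 90.4 ± 26.9 CPM at 2 years and 23.4 ± 1.35 CPM at 12 weeks (SD, n = 4; log2 fold change 1.95, edgeR adjusted p = 2.61e-05). Ube2g2, Ube2w and Ube2v1 rose by 0.70, 0.46 and 0.37 on the log2 scale. With the offset 8 enzymes of this list rose and 2 fell, and Ube2w and Ube2v1 were not called (0.16 in both).

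Some relatives have TRIM architecture but other symbols and were counted apart. Mefv, the pyrin gene of myeloid cells, rose to 1.56 ± 0.732 CPM at 2 years, against 0.132 ± 0.0664 CPM at 12 weeks (SD, n = 4; log2 fold change 3.55, edgeR adjusted p = 0.00022). Every 12-week library was below the filter's level of 0.394 CPM, so Mefv was tested through its 2-year libraries, which favours a higher call in advance. Pml, the organiser of PML nuclear bodies, rose by 0.42 (0.71 with the offset, still called). Cmya5, a striated muscle protein, fell (-3.24, and -2.33 with the offset, still called). Mid1 and Mid2 were not called (0.35 and -0.42). With the offset Mid1 was called higher (0.55) and Mid2 was at -0.038 and not called.

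Of the 4 chromatin members, all tested, 2 fell, and 0 were called lower and 1 higher with the offset. Trim28, the corepressor recruited by KRAB zinc finger proteins, had 103, 109, 84.4 and 108 CPM at 2 years, against 100.1, 77.4, 92.0 and 103 CPM at 12 weeks. The groups overlapped, and the log2 ratio was 0.12 (SE 0.13, edgeR adjusted p = 0.486, and 0.0293 to 0.853 over all alternatives), and it was called higher only with the length and GC offset (0.35). Trim33, a ligase that acts on Smad4 in TGF-beta signalling, was at 30.8 ± 4.79 CPM at 2 years and 47.0 ± 6.86 CPM at 12 weeks (SD, n = 4; log2 fold change -0.61, edgeR adjusted p = 0.00635). Its transcript is 8875 nt long and its value was 0.049 and not called with the offset.

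Trim24, a corepressor of retinoic acid receptors, was at 28.2 ± 3.62 CPM at 2 years and 36.6 ± 4.89 CPM at 12 weeks and was called lower (log2 fold change -0.38, edgeR adjusted p = 0.0396, and 0.0176 to 0.112 over all alternatives). The groups overlapped and the call was lost in 11 of 17 alternatives. These included leaving out 12 weeks replicate 2 (-0.33), 3 (-0.40) or 4 (-0.33), or 2 years replicate 1 (-0.36), 2 (-0.35) or 3 (-0.36), and the offset (-0.29). Trim66, a scarce member of the same group, was at 1.01 ± 0.229 CPM at 2 years and 1.2 ± 0.366 CPM at 12 weeks (SD, n = 4) and was not called. Its log2 fold change was -0.25, and 0.47 with the offset, where it was not called either. Of 9 partners of Trim28, 2 rose and 4 fell, or 22.2% and 44.4%, beside 25.8% and 26.2% of all genes. With the offset 1 rose and 2 fell. Chd3, a remodeller of the NuRD complex, fell to 101.7 ± 41.2 CPM at 2 years, against 310.9 ± 32.1 CPM at 12 weeks (SD, n = 4; log2 fold change -1.61, edgeR adjusted p = 0.000648). The methyltransferase Setdb1 (-0.46) and the HP1 gene Cbx5 (-0.45) fell and Hdac1 rose (0.39). With the offset Setdb1, Cbx5 and Hdac1 were not called (-0.28, 0.19 and 0.064), and Chd3 was at -0.99 and still called.

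A list of 4 members with a COS box, which binds microtubules, was followed. The list does not hold every member with this box. Of these 4, 3 were tested and all 3 fell, beside 26.2% of all genes. With the offset 2 were called lower. Trim67 passed the filter through its 12-week libraries, which favours a lower call in advance. Trim46, which organises the microtubules of the axon initial segment in neurons, had 5.11, 4.99, 3.58 and 4.79 CPM at 2 years, against 18.4, 11.6, 13.2 and 14.03 CPM at 12 weeks. Every 2-year value was well below every 12-week value (log2 fold change -1.62, SE 0.19, edgeR adjusted p = 4.59e-05). Trim67, a neuronal member, had 0.514, 0.256, 1.56 and 0.278 CPM at 2 years, against 5.37, 1.96, 3.70 and 1.58 CPM at 12 weeks. The groups came close at 2 years replicate 3 and 12 weeks replicate 4, and the log2 fold change was -2.36 (SE 0.60, edgeR adjusted p = 0.00668). It was -3.13 without 2 years replicate 3 and -1.56 with the offset, called in both. Trim36 was at 7.34 ± 1.34 CPM at 2 years and 10.8 ± 1.70 CPM at 12 weeks (log2 fold change -0.56, edgeR adjusted p = 0.0219). It was not called without 12 weeks replicate 2 (-0.49), 12 weeks replicate 4 (-0.51) or 2 years replicate 4 (-0.47), nor with the offset (-0.41). Trim9 had 31 counts at 2 years and 34 at 12 weeks and was not tested. Of 8 Schwann cell and nerve markers 4 rose and 1 fell, with a summed level of 220.3 to 270.7 CPM at 2 years and 105.8 to 162.6 CPM at 12 weeks. The part of nerve tissue in these values was not tested.

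Of the 4 members of striated muscle 2 were tested and 1 fell, and all 4 were highest in 12 weeks replicate 3. Trim63, the sarcomere ligase MuRF1 that rises in muscle atrophy, had 0.228, 0.0426, 0.195 and 0.278 CPM at 2 years, against 0.917, 0.732, 2.29 and 0.487 CPM at 12 weeks. The groups did not overlap, the log2 fold change was -2.51 (SE 0.61, edgeR adjusted p = 0.00526), and without 12 weeks replicate 3 it was -1.88 and still called. Trim63 had 0 libraries over the filter's level at 2 years and 4 at 12 weeks, which favours a lower call in advance. Trim72, a membrane repair protein of muscle, had 0.257, 0.426, 0.585 and 0.208 CPM at 2 years, against 0.306, 0.347, 2.07 and 0.406 CPM at 12 weeks. Only 12 weeks replicate 3 stood out, and the log2 fold change of -1.16 (edgeR adjusted p = 0.173) was -0.01 without it. Trim55 and Trim54, untested for low counts, held 46 and 26 of their 57 and 39 counts at 12 weeks in that library, and had 6 and 12 counts in all 2-year libraries. The summed heart muscle markers were at 135.4 to 206.4 CPM at 2 years and 267.9 to 1362 CPM at 12 weeks, with the highest value in 12 weeks replicate 3. In the other 12-week libraries Ryr2 alone held 144.7 to 182.7 CPM of the sum. Its log2 fold change was -2.72, and -1.54 with the offset. Myh6 was at 428 CPM in 12 weeks replicate 3, 6.77 to 19.8 CPM in the other 12-week libraries and 0.729 to 8.73 CPM at 2 years. Of the 9 tested heart muscle markers 5 fell. The summed skeletal muscle markers were at 5.45 to 49.1 CPM at 2 years and 6.29 to 288.1 CPM at 12 weeks, and were highest in 12 weeks replicate 2, with 109.1 CPM in replicate 3. Of the 9 tested skeletal muscle markers 1 fell and 8 were not called. The part of muscle tissue in these results was not tested.

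**Figure D4:**
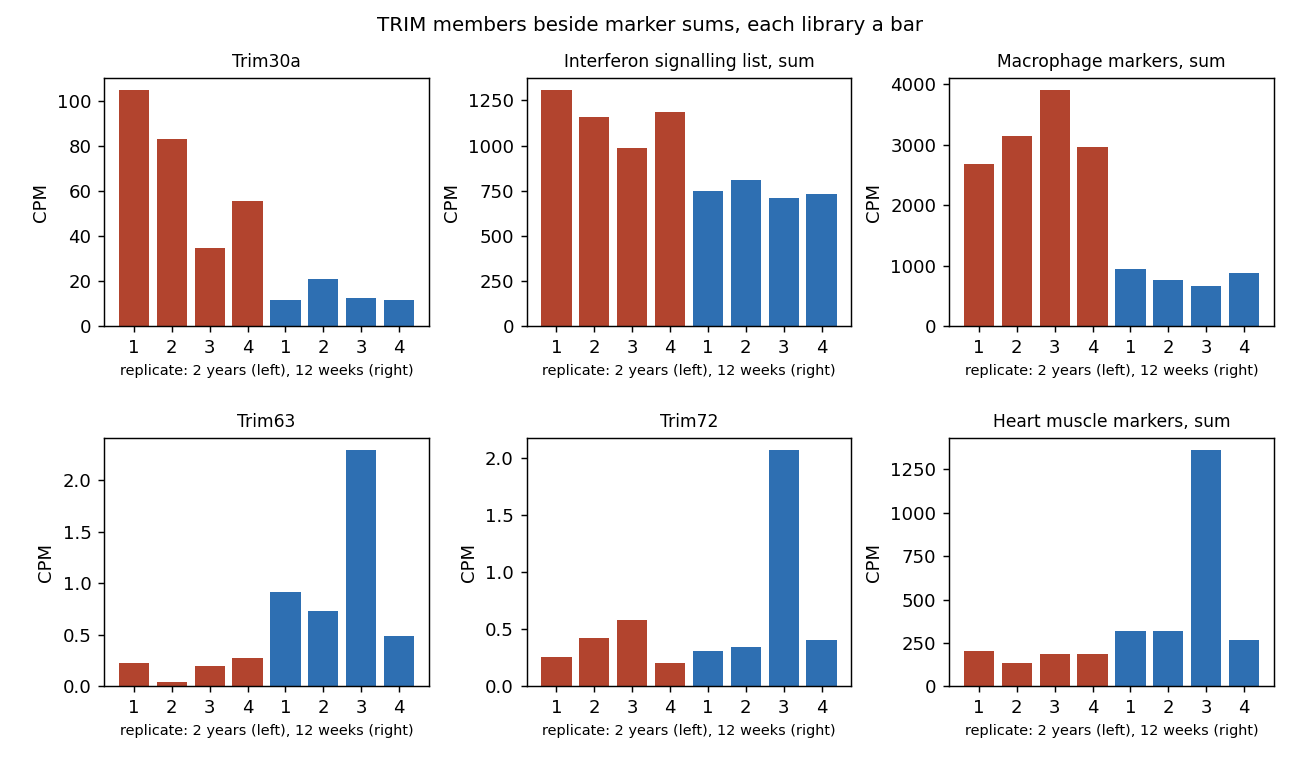
CPM of Trim30a, Trim63 and Trim72 beside the summed CPM of the interferon signalling list, the macrophage markers and the heart muscle markers, with each library as a bar (2 years replicates 1 to 4 in red on the left, 12 weeks replicates 1 to 4 in blue on the right). Trim30a is lowest among 2-year libraries in replicate 3, where the macrophage sum is highest at 3904 CPM, though not every macrophage marker peaks there. Trim63, Trim72 and the heart muscle sum peak in 12 weeks replicate 3.

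Of the 2 erythroid members 1 was tested, and it fell while the red blood cell markers rose. Trim58, a ligase of late erythroblasts, had 2.54, 3.33, 0.780 and 2.53 CPM at 2 years, against 3.67, 4.77, 4.40 and 6.08 CPM at 12 weeks. The groups did not overlap, and the log2 ratio was -1.02 (SE 0.36, edgeR adjusted p = 0.0311, and 0.0102 to 0.0889 over all alternatives). It was not called without 12 weeks replicate 2 (-1.02) or 12 weeks replicate 4 (-0.89). All 6 tested erythroid markers rose in the same comparison, beside 25.8% of all genes. Their summed level was 1777 to 7942 CPM at 2 years and 442.5 to 725.2 CPM at 12 weeks. The part of blood cells in these values was not tested. Trim10, another erythroid member, was untested and had 25, 27, 0 and 10 counts in 2 years replicates 1 to 4, against 2, 0, 4 and 5 counts in 12 weeks replicates 1 to 4.

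Several members of varied function fell without overlap between the groups. Trim39, a regulator of apoptosis and the cell cycle, had 10.7, 9.81, 10.9 and 11.2 CPM at 2 years, against 33.8, 27.1, 27.3 and 27.2 CPM at 12 weeks. The 2-year values spread by little and lay far below the 12-week values (log2 fold change -1.44, SE 0.13, edgeR adjusted p = 7.76e-06). Trim11 had 9.87, 12.1, 10.01 and 12.3 CPM at 2 years, against 34.0, 21.1, 24.4 and 24.05 CPM at 12 weeks (log2 fold change -1.22, SE 0.17, edgeR adjusted p = 0.000154). Trim11 is a ligase studied in neural development and protein quality control. Trim68, a SPRY member, was at 5.02 ± 0.658 CPM at 2 years and 10.8 ± 1.31 CPM at 12 weeks (log2 fold change -1.10, SE 0.16, edgeR adjusted p = 0.000243). Trim7, a partner of glycogenin, fell by 0.97 on the log2 scale. For Trim7, 15.6% of 50-base words occur in another gene on either strand. These 4 were called under every alternative run.

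The most abundant members per length were Trim47, Trim35, Trim28 and Trim44. Trim47 stood at 37.8 CPM per kilobase at 2 years and 46.2 at 12 weeks, and Trim35 at 31.6 and 23.4. Trim35 had 114, 145, 92.8 and 113 CPM at 2 years, against 87.5, 84.7, 84.8 and 86.6 CPM at 12 weeks. The 12-week values lay within a few CPM of each other and all 2-year values were above them (log2 fold change 0.44, SE 0.14, edgeR adjusted p = 0.0218). The call was lost without 12 weeks replicate 2 (0.42), 3 (0.42) or 4 (0.43) or 2 years replicate 2 (0.29). Trim44, a member without a RING finger, had 119, 112, 102 and 135 CPM at 2 years, against 160, 189, 167 and 156 CPM at 12 weeks. Its groups did not overlap (log2 fold change -0.52, SE 0.13, edgeR adjusted p = 0.00586), and with the offset it was at -0.23 and not called.

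Trim47 had 77.4, 100, 66.5 and 89.0 CPM at 2 years, against 139, 80.7, 90.9 and 96.8 CPM at 12 weeks, and was not called (log2 fold change -0.29, edgeR adjusted p = 0.21, and -0.14 with the offset). Trim8, a regulator of cytokine signalling through Socs1, was at 44.0 ± 8.60 CPM at 2 years and 50.2 ± 3.06 CPM at 12 weeks and was not called either. Trim27, a SPRY member known as the ret finger protein, had 32.5, 33.6, 39.8 and 30.7 CPM at 2 years, against 22.5, 19.8, 23.1 and 25.7 CPM at 12 weeks. All 2-year values were higher (log2 fold change 0.58, SE 0.13, edgeR adjusted p = 0.00307).

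Of the members anchored in membranes, Trim59 rose and Trim13 was not called. Trim59 was at 7.41 ± 0.982 CPM at 2 years and 4.80 ± 1.15 CPM at 12 weeks (SD, n = 4; log2 fold change 0.63, SE 0.20, edgeR adjusted p = 0.0222). It was not called without 12 weeks replicate 1 (0.55), 12 weeks replicate 4 (0.53) or 2 years replicate 2 (0.50). Trim13 was at 7.30 ± 0.859 and 6.99 ± 1.52 CPM (log2 fold change 0.06), and with the offset it was called lower (-0.43).

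Among members with an NHL repeat domain, Trim3 fell without overlap, with 28.8, 32.8, 31.5 and 32.6 CPM at 2 years, against 59.0, 44.8, 41.5 and 46.8 CPM at 12 weeks (log2 fold change -0.61, SE 0.13, edgeR adjusted p = 0.00255). Trim32, which is mutated in a human limb-girdle muscular dystrophy, was at 29.5 ± 3.25 CPM at 2 years and 27.9 ± 2.27 CPM at 12 weeks and was not called. Trim2 was at 44.3 ± 9.72 and 38.9 ± 4.93 CPM, and was called only with the offset (0.68 with it and 0.19 without). Trim71, a stem cell member, had no count in any library. The other members tested, Trim16, Trim23, Trim37, Trim41, Trim45 and Trim62, had log2 fold changes of -0.38 to -0.02 and were not called. With the offset Trim37 was called higher (0.27), and without 2 years replicate 3 Trim45 was called lower (-0.45).

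Germline members were nearly silent. Of 8 such members 5 had no count and Trim43a, Trim43b and Trim80 had at most 4 counts in any library. Of the remaining members Trim15 and Trim31 had 1 and 2 counts at 2 years and none at 12 weeks, and Trim40, Trim50 and Trim52 had none in any library.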

How the data were processed

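RNA from aortas was sequenced, per the labels' protocols, on a NovaSeq system. The authors deposited raw counts per gene symbol, as the labels and the file headers say. The submitters' processing notes name build GRCm39. The aligner, counting tool, annotation and strand handling: not given in the sources used here. Nothing in the labels says more of the animals than their age, sex and genotype, so p-values measure the spread between these samples.

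Counts of all 25526 genes were filtered (filterByExpr) and scaled by TMM, the trimmed mean of M values, which CPM also uses. The test of age was the robust quasi-likelihood F test of edgeR, and Benjamini-Hochberg adjustment ran over 13978 genes. SE was derived from the fold change and F. Alternatives were other scalings, DESeq2, limma voom, no filter, leaving out libraries, a replicate block, and an offset from natural splines with 4 degrees of freedom on transcript length and GC (GENCODE M21, longest coding transcript, 97.8% of tested genes). The pipeline was tested on simulated data. Replicates of a group differed by 22.6 to 150.5 times the counting variance per degree of freedom, so none was counted as a copy.

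Members and lists were chosen with earlier results of these data known. Named were members called with at least a 2-fold change (up to 12 per direction), the 6 with the highest CPM, Trim21, Trim25, Trim28, Trim30a and Trim63, any tested member of a role list, and up to 4 called genes of each other list by smallest p. The software was edgeR 4.0.16, DESeq2 1.42.0 and limma 3.58.1 in R 4.3.3.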

Additional observations from a re-analysis of the deposited data

Results flagged for a closer look

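Of 90 groups of 4 libraries screened over the tested members, 6 held a library far from the other 3, where chance flags about 1 in 20 groups. At 2 years, Trim5 was at 15.1 CPM in replicate 3 (7.43 to 7.89 in the others), Trim45 at 10.2 CPM in replicate 3 (5.80 to 6.48) and Trim59 at 8.87 CPM in replicate 2 (6.79 to 7.08). At 12 weeks, Trim30a was at 21.2 CPM in replicate 2 (11.6 to 12.5 in the others), Trim72 at 2.07 CPM in replicate 3 (0.306 to 0.406) and Trim39 at 33.8 CPM in replicate 1 (27.1 to 27.3).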

How the results depend on the processing

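Over the settings that left out 1 library each, 7 to 11 members were called higher and 12 to 16 lower, against 10 and 16 with all libraries. Over the other settings the counts were 8 to 12 and 12 to 16. Of the 5 pathway lists 34 genes were called, 26 to 42 with 1 library left out and 27 to 42 otherwise. By list, 38.9 to 69.2% of the tested genes were called in the main fit, beside 52.0% of all genes. Without a filter on low counts 59 members were tested and the counts were 10 and 16. DESeq2 and limma voom also gave 10 and 16. With the length and GC offset the sign changed for Trim33 (0.049, and 0.040 with the replicate block as well), Trim37 (0.27) and Trim13 (-0.43), each called in 1 of the fits, and for Trim66 (0.47), Trim8 (0.087) and Trim45 (0.019), called in neither. The cause was not tested. Replicate numbers did not pair the libraries: correlations of deviations between same-numbered libraries were -0.308 to 0.0511, and 0 of 4 libraries at 2 years correlated best with their own number. With the replicate block 8 members were higher and 14 lower, and Trim21, Trim35, Trim24 and Trim36 were not called. Joining the offset and the block ended the call of Trim30c (1.38). Low counts limit Trim6, Trim30b, Trim30c, Trim63, Trim67 and Trim72.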

Other observations

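Members too scarce to test held some further values. Trim17 had 14 counts at 2 years and 47 at 12 weeks, and was called lower where leaving out 12 weeks replicate 4 or 2 years replicate 1 let it pass the filter. It had 0 libraries over the filter's level at 2 years and 3 at 12 weeks. It thus passed only through the group where it was high, which favours a lower call in advance. Trim38, an interferon-induced member, had 19 counts at 2 years and 10 at 12 weeks, and Trim34b had 23 and 21. Trim69 had 3 and 6 counts and Trim29 had 4 and 3.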
